A study of Mus musculus with 3 samples.

Results

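Broad cluster 18 is a group of nuclei from the mouse lateral septum whose 50 deposited marker genes include the vesicular glutamate transporter gene Slc17a6 and the transcription factor genes Ebf2 and Ebf3. The members described here are all 50 genes listed for that cluster number in the authors' deposited table of broad clusters, which names 834 different genes in 1250 rows for 25 clusters. The genes were placed in that list by the authors for being higher in the cluster than in all other nuclei, so their elevation is a description and not a test. Nuclei came from 8 untreated male C57BL/6J littermates aged 3 months, from punches 500 µm wide in sections 200 µm thick, and were sorted by fluorescence, pooled and made into 3 libraries of nuclear RNA. All 3 libraries form 1 group and no values per library or mouse were used, so no value below has a replicate error, and the depth and the number of nuclei are unknown. Per the labels, pieces of the medial and triangular septum, prefrontal cortex and striatum may have been taken along, and the origin of the nuclei of cluster 18 within or beside the lateral septum was not tested.

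The lateral septum is built mostly of GABAergic neurons, which release an inhibitory transmitter. Glutamatergic neurons load their vesicles through SLC17A6 (VGLUT2), typical of subcortical neurons, or SLC17A7 (VGLUT1), typical of cortex and hippocampus. The early B cell factors (EBF) are DNA-binding helix-loop-helix transcription factors known for roles in the migration and differentiation of neurons, and calretinin, the product of Calb2, is a calcium-binding protein that marks many small neuron populations.

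All 4 genes that mark these nuclei in the label, Slc17a6, Ebf2, Ebf3 and Calb2, were listed for cluster 18. Those markers were taken from the same list, so their presence is no independent check. Of the genes marking 11 other cell types (Cajal-Retzius cells, cortical excitatory, GABAergic, cholinergic, thalamic or habenular, hypothalamic, and striatal neurons, astrocytes, oligodendrocytes, their precursors and ependymal cells), 0 were listed for cluster 18, which says only that none was among its 50 genes. The 4 label markers were kept in a list of their own, so they could not count for any of these types. The cholinergic, hypothalamic and ependymal lists had 0 genes listed for any broad cluster, so their result was fixed in advance. Detection inside cluster 18 can be bounded for the 43 genes of the 11 types that another broad cluster listed, because all positive nuclei outside the listing clusters could at most lie in it. The bound was below 100% for 13 genes and below 50% for 5. Tac2, a tachykinin gene of the medial habenula, could be detected in at most 2.81% of cluster 18 nuclei, the striatal adenosine receptor gene Adora2a in at most 19.7%, the precursor genes Gpr17 and Cspg4 in at most 31.1% each, and the cortical projection neuron gene Fezf2 in at most 48.3%. For Slc17a7, for all 3 listed GABAergic markers and for all listed astrocyte and oligodendrocyte markers the bound was 100% and gives no information. The same holds for all 3 listed Cajal-Retzius markers, Reln, Ndnf and Car10, so the values set no limit on that cell type.

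The 3 stretches below are the bases before the start sites of Ebf3, the gene most concentrated in cluster 18 among those with detection above 0 outside it, of Slc17a6, which sets the transmitter class, and of Samd3, the next most concentrated of those genes. They come from the RefSeq promoter windows on GRCm38.p6, read 5′ to 3′ on the strand of the gene, 250 bases each. Capitals mark a match to CCCNNGGG, the inner 8 bases of the palindrome TCCCNNGGGA bound by EBF factors, in Ebf3, and to AGGTGTGA, a T-box motif read here on the opposite strand, in Samd3. The Slc17a6 stretch, the first of its 2 windows, held no match to the inner bases.
Ebf3, chr7:137314446-137314695, minus strand: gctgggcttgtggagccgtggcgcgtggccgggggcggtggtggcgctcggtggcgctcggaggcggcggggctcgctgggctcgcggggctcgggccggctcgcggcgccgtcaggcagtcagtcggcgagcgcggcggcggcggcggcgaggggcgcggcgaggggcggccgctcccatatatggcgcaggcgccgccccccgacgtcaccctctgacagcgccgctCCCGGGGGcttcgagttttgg
Slc17a6, chr7:51621580-51621829, plus strand: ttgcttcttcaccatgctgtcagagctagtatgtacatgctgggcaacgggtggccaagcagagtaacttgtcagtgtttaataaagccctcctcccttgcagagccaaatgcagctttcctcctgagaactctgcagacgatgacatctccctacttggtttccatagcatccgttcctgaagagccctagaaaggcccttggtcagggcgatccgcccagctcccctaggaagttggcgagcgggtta
Samd3, chr10:26229457-26229706, plus strand: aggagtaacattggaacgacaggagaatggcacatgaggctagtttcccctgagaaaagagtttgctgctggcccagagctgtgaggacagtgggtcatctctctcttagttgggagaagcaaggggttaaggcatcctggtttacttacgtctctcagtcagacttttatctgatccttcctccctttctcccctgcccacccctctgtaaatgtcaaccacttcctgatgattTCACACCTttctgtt

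Windows were found for 37 of the 50 genes, 57 windows in all, each 250 bases before to 50 after a start site, and both strands were searched. The whole palindrome TCCCNNGGGA was in 0 of the 57 windows and in 0.904% of all 32851 windows of the same length. Its inner bases CCCNNGGG, which the palindrome contains, were in 7 of 57 windows (12.3%), those of Cacna1i, Crtac1, Ebf3, Heg1, Nrg3, Plch1 and Thsd7b, and in 13.7% of all windows. The T-box motif AGGTGTGA, searched because the T-box gene Eomes was found in the list, was in 1 window (1.75%), that of Samd3, and in 1.28% of all. The median GC content of the 250 bases before the start was 56.4% in the members' windows and 52.4% in all. Motif shares of the members were thus close to those of all windows, and letters in these short windows do not say where a factor binds. No window was found for 1700011I03Rik, Adgrd1, Ank3, Calb2, Ctxn3, Ebf2, Epb41l4a, Eps8, Nefm, Prkg2, Ptprd, Sln and Zbtb7c.

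Cluster 18 was a small population. Its share of all nuclei, recovered from the detection values of the genes that several clusters list, was 1.74% ± 0.024 points (SD that rounding of the detection values gives), which placed it 19th by size of 25. Cluster 21, the only other broad cluster that listed Slc17a6, held 1.46% ± 0.022 by the same reckoning. The fit left a root mean square residual of 0.024 points over weighted equations, so the unweighted mismatch was larger. The 25 shares summed to 100.03% without being made to.

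Members differed widely in how they were detected, as the plot of detection inside and outside the cluster shows. Detection inside ran from 3% to 100% with a median of 37.7%, and the median outside was 3.5%, against medians of 45.8% and 13.6% over all 1250 rows of the authors' deposited table. The median log2 fold change was 3.58 against 2.11 over all rows, and only 1 of the 25 clusters had a higher median. A log2 fold change of at least 4 was listed for 16 of the 50 genes (32%), against 12.9% of all rows, and detection under 5% of other nuclei for 28 (56%), against 30.2%. Since these values chose the genes, nothing is read from those shares. Median fold changes by cluster size are plotted beside the numbers of genes listed for 1 cluster. A group of 11 genes was detected in at least 90% of the nuclei inside, and 12 were detected in fewer than 25%.

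**Figure D1:**
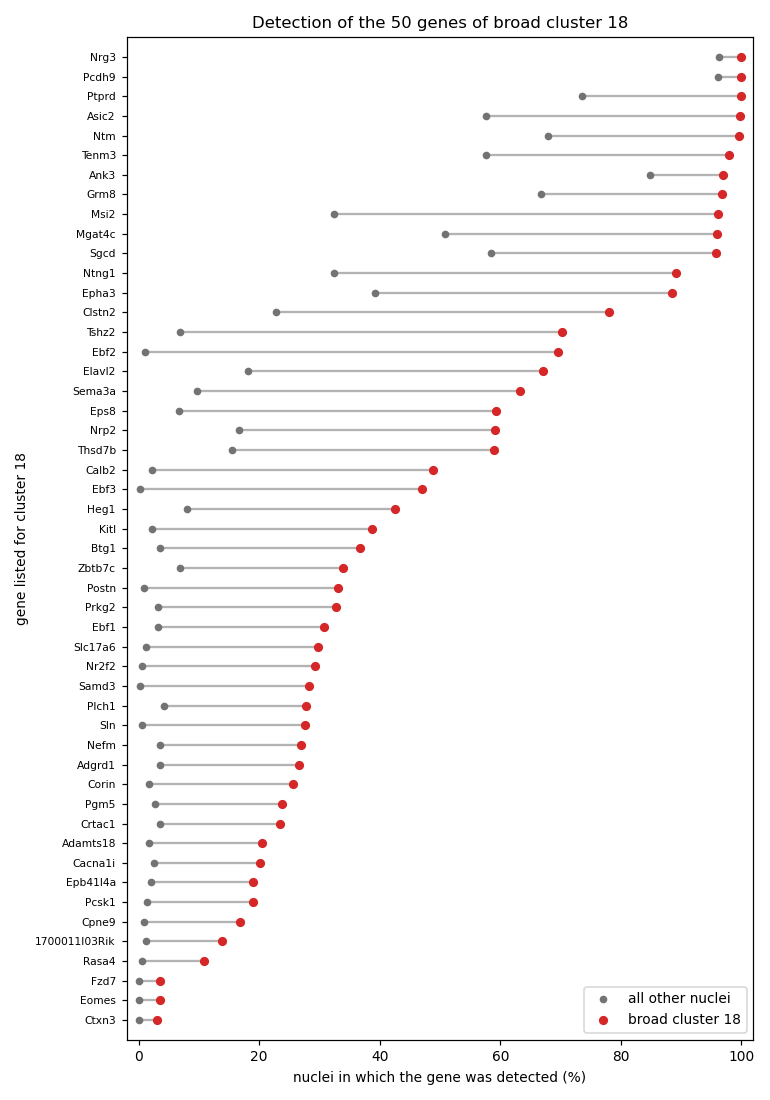
Percentage of nuclei in which each of the 50 genes was detected inside broad cluster 18 (red) and in all other nuclei (grey), 1 line per gene, ordered by detection inside. Ebf2 and Ebf3 join high detection inside (69.6% and 47%) to low detection outside (1.1% and 0.3%), while Nrg3 and Pcdh9 were detected in over 96% of nuclei on both sides.

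**Figure D2:**
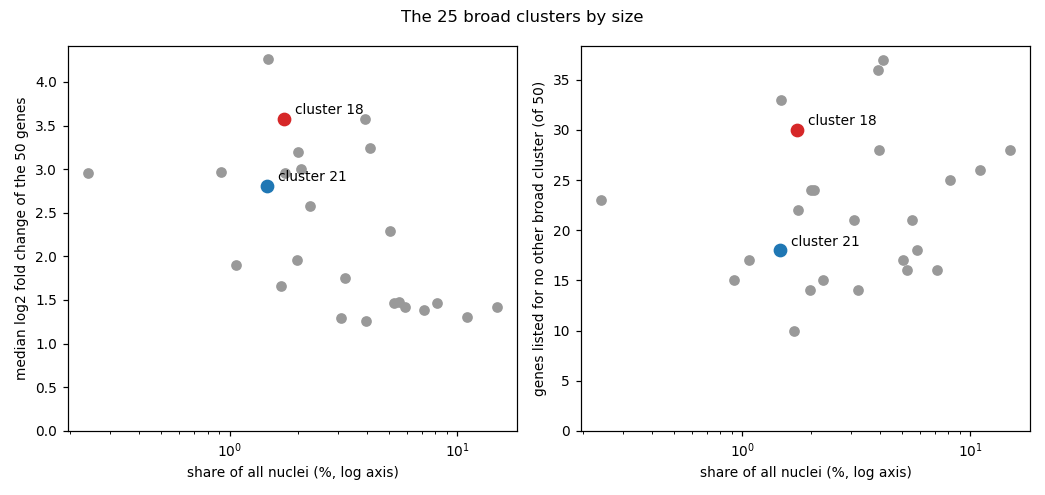
Each point is 1 of the 25 broad clusters, placed by its share of all nuclei (log axis) and, on the left, the median log2 fold change of its 50 genes or, on the right, how many of them no other broad cluster lists. Cluster 18 (1.74% of nuclei) had a median of 3.58 and 30 such genes, and cluster 21 (1.46%) had 2.81 and 18.

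Transcription factor genes led the list. The authors' deposited table listed 3 of the 4 genes of the EBF family for cluster 18 and for no other of the 25 broad clusters, nor for any GABA or Sst subcluster. Ebf2 was detected in 69.6% of cluster 18 nuclei against 1.1% of other nuclei in the authors' deposited table, with a log2 fold change of 7.27 and the largest difference in detection of all 50 genes, 68.5 points. Ebf3 was detected in 47% against 0.3%, with a log2 fold change of 7.39 in the authors' deposited table. Ebf1 was less selective, at 30.8% against 3.2% and a log2 fold change of 4.00 in the authors' deposited table. The family thus ranked Ebf2, Ebf3, Ebf1 by detection inside and Ebf3, Ebf2, Ebf1 by fold change. In the GENCODE M21 annotation of GRCm38 the whole genes span chr14:67233292-67430918 (Ebf2, plus strand), chr7:137193673-137314445 (Ebf3, minus strand) and chr11:44617317-45008091 (Ebf1, plus strand), and all 3 are protein-coding.

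Other transcriptional regulators joined them. The nuclear receptor gene Nr2f2 (COUP-TFII), known for roles in cell fate and in interneurons of caudal origin, was detected in 29.2% of cluster 18 nuclei against 0.6%, with a log2 fold change of 5.61 in the authors' deposited table. The only other listing of Nr2f2 in the 3 tables was GABA subcluster 19, with 12.4% against 0.5% of other GABA nuclei and a log2 fold change of 4.55 in the authors' deposited table. Tshz2, a teashirt zinc finger gene, was detected in 70.2% against 6.8% (3.41 on the log2 scale), while cluster 23 listed it at 100% against 7% (6.17) in the authors' deposited table. Zbtb7c, a zinc finger gene with a BTB domain, had 33.9% against 6.8% and a log2 fold change of 2.75 in the authors' deposited table. Eomes (Tbr2), a T-box gene of intermediate progenitors and of some glutamatergic neurons, was detected in only 3.6% of the nuclei inside, and detection outside is listed at 0 in the authors' deposited table, to 3 decimals of a fraction.

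Of 123 transcription factor genes looked up, 55 were listed for some broad cluster and 7 for cluster 18, which is 14% of its genes against 7.36% of all rows. The 7 had a median log2 fold change of 5.61 against 2.35 for all rows of that list, and 2 other clusters listed as many. The list was drawn up with the EBF genes already known to lead the cluster, so its count is not independent of them.

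Genes of the transmitter phenotype and genes tied to calcium are described together here, the latter grouped by hand. Slc17a6 was detected in 29.8% of the nuclei inside against 1.3% outside, with a log2 fold change of 4.64 in the authors' deposited table, and was 1 of 7 vesicular transporter genes looked up. That 1 gene is 2% of the cluster's list, against 0.640% of all rows, and 6 other clusters listed as many or more. The gene spans chr7:51622006-51671119 (plus strand). Calb2 was detected in 48.8% against 2.2%, with a log2 fold change of 5.18, and was listed for no other cluster of the authors' deposited table. Of 22 calcium-binding genes looked up, Calb2 alone was listed for cluster 18, which is 2% of its genes against 1.20% of all rows. As many or more were listed for 11 other clusters, so the count was near the background. Sln, Cacna1i and Cpne9, given below, were not in that list. The Calb2 gene spans chr8:110137502-110168210 (minus strand, same annotation). Sln, which encodes sarcolipin, a small inhibitor of the calcium pump of the sarcoplasmic and endoplasmic reticulum, was detected in 27.6% against 0.5% (5.91 on the log2 scale) in the authors' deposited table. Cacna1i, the gene of a low-voltage-activated T-type calcium channel, had 20.2% against 2.5% (3.16), and Cpne9, of the calcium-dependent copine family, had 16.9% against 0.9% (4.43) in the authors' deposited table.

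The table gives no counts of nuclei positive for 2 genes at once, but detection sets limits. Ebf2 and Ebf3 must have been detected together in at least 16.6% and at most 47% of cluster 18 nuclei, Ebf2 and Calb2 together in 18.4% to 48.8%, and Ebf2 and Tshz2 together in 39.8% to 69.6%. For Slc17a6 with Ebf2, Ebf3 or Calb2 the lower limit was 0 and the upper limit 29.8%. The 4 label markers were therefore each seen in a minority of the nuclei, except Ebf2, and the values do not show whether they mark the same nuclei. Detection in a droplet library depends on depth, which is unknown here, so a nucleus without a detected transcript was not shown to lack the gene's RNA.

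A further set, also grouped by hand, held secreted factors, membrane proteins and other selective genes. In the authors' deposited table, Samd3, the gene of a protein with a sterile alpha motif, had 28.2% against 0.3% and a log2 fold change of 6.89, higher than every gene with a measured outside detection except Ebf3 and Ebf2. Postn, the gene of the matrix protein periostin, had 33.1% against 0.9% (5.53), and Kitl, the ligand of the receptor tyrosine kinase KIT, had 38.7% against 2.3% (4.61) in the authors' deposited table. Corin, a transmembrane protease that activates atrial natriuretic peptide in the heart, had 25.6% against 1.8% (4.46) in the authors' deposited table. Pcsk1, the prohormone convertase that cuts neuropeptide precursors, had 19% against 1.4% (3.93) in the authors' deposited table. Of 38 neuropeptide genes looked up, 0 were listed for the cluster, as in 17 of the 25 clusters, and such genes made up 1.20% of all rows. Fzd7, a Wnt receptor gene, was detected in 3.6% and Ctxn3, a cortexin gene, in 3% of the nuclei inside, and detection outside is listed at 0 for both in the authors' deposited table.

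Axon guidance genes were higher in detection but less selective. The cluster listed 4 of 72 genes looked up, 8% of its genes against 2.48% of all rows, and 0 of the 24 other clusters listed as many. They were the secreted repellent gene Sema3a (63.3% against 9.7%, log2 fold change 3.94), the ephrin receptor gene Epha3 (88.5% against 39.2%, 2.49), the semaphorin co-receptor gene Nrp2 (59.1% against 16.7%, 2.46) and the netrin-G1 gene Ntng1 (89.1% against 32.5%, 2.36) in the authors' deposited table. Their median log2 fold change was 2.47 against 1.66 for all rows of the list. Each was listed for at least 1 other broad cluster. The list was chosen with earlier results on these genes known.

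Synaptic adhesion genes were near the background. The cluster listed 4 of 69, again 8%, against 5.76% of all rows, and 8 other clusters listed as many or more. They were the receptor tyrosine phosphatase gene Ptprd (100% against 73.6%, log2 fold change 2.65), the teneurin gene Tenm3 (98% against 57.7%, 3.45), the neurotrimin gene Ntm (99.6% against 68%, 2.22) and the calsyntenin gene Clstn2 (78% against 22.8%, 2.52) in the authors' deposited table. Ion channel genes were also near it, with 2 of 93 listed (4% against 4.40% of all rows), Cacna1i and the acid-sensing channel gene Asic2, detected in 99.8% against 57.7% with a log2 fold change of 3.17 in the authors' deposited table. Single members came from the glutamate and GABA receptor list (Grm8, a presynaptic metabotropic glutamate receptor gene, 96.8% against 66.8%, 1.53) and the cadherin list (Pcdh9, 100% against 96.1%, 1.27) in the authors' deposited table. The signalling genes Prkg2, a cGMP-dependent kinase (32.7% against 3.2%, 3.70), and Plch1, a phospholipase C (27.8% against 4.2%, 3.09), the neuregulin gene Nrg3 (100% against 96.3%, 1.10), and, from the list of matrix and related genes, Adamts18 (20.4% against 1.7%, 3.89) and Thsd7b (58.9% against 15.5%, 2.52) completed the listed members of these groups in the authors' deposited table. The matrix list, at 4% of the cluster's genes, was below its 5.52% of all rows. The glutamate and GABA receptor list and the cadherin list stood at 2% each, against 2.48% and 1.84% of all rows. The growth factor list (Kitl and Nrg3) and the second messenger list (Prkg2 and Plch1) stood at 4% each, against 3.04% and 3.44%. These shares were near the background as well. Of 48 neuropeptide receptor genes and 39 amine, acetylcholine or cannabinoid receptor genes, 0 were listed for the cluster, but these lists made up only 0.560% and 1.12% of all rows, and 18 and 16 of the 25 clusters listed 0.

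The remaining members fell outside these groups. In the authors' deposited table the RNA-binding protein gene Msi2 had the second largest difference in detection, 63.8 points (96.2% against 32.4%, log2 fold change 3.21), and Elavl2, a neuronal RNA-binding protein gene, had 67.1% against 18.2% (2.52). Eps8, which encodes an actin regulator, had 59.3% against 6.7% (3.98), and Nefm, a neurofilament gene, had 27% against 3.5% (3.28) in the authors' deposited table. Rasa4, a Ras GTPase-activating protein gene, was detected in 10.9% against 0.5% (4.47), and Btg1, an antiproliferation factor gene, in 36.7% against 3.5% (3.88) in the authors' deposited table. The scaffold gene Ank3 of the axon initial segment had 97% against 84.9% (1.20) in the authors' deposited table. The other 8, Epb41l4a, Pgm5, Adgrd1, Crtac1, Heg1, Mgat4c, Sgcd and 1700011I03Rik, had log2 fold changes between 1.73 and 3.79 and detection inside between 13.9% and 96% in the authors' deposited table.

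For several selective genes the fold change was about as large as the change in how many nuclei had the transcript. For the 47 genes detected outside at all, the log2 of the detection ratio was set beside the log2 fold change, as plotted. The fold change exceeded the detection ratio by 0.10 for Ebf3, 0.13 for Sln, 0.00 for Nr2f2 and 0.12 for Slc17a6 on the log2 scale, but by 1.29 for Ebf2 and 1.24 for Sema3a. Outside detection was only 0.3% for Ebf3, 0.5% for Sln and 0.6% for Nr2f2. Rounding of such values can move the log2 ratio by as much as these 3 excesses, so their sign is not settled. Among the 11 genes detected in at least 90% of the nuclei inside, the excess had a median of 1.21 and ran from 0.92 (Mgat4c) to 2.69 (Tenm3), with 2.38 for Asic2 and 2.21 for Ptprd. Among the other 36 the median was 0.45, within 0.00 and 1.31. The median excess over all genes with a ratio was 0.59 for cluster 18, 0.59 for cluster 21 and 0.41 over the whole table. Detection cannot exceed 100%, which caps the detection ratio of genes that are also common outside.

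**Figure D3:**
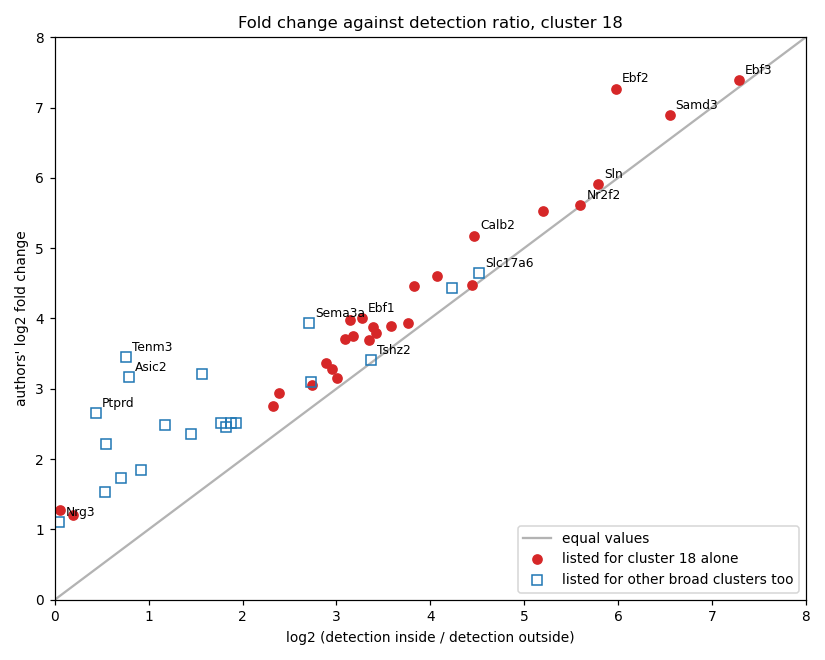
The authors' log2 fold change (vertical axis) against the log2 ratio of detection inside to detection outside (horizontal axis) for the 47 genes of cluster 18 with detection above 0 outside; red points are listed for no other broad cluster and blue squares for at least 1 more. Ebf3, Sln, Nr2f2 and Slc17a6 lie close to the line of equal values, and Tenm3, Asic2 and Ptprd lie 2.69, 2.38 and 2.21 above it.

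With its share of 1.74% of nuclei, the cluster held 73.5% of all nuclei in which Ebf3 was detected (70.4% to 76.9% from rounding of the detection values), 62.5% for Samd3 (58.8% to 66.7%) and 52.9% for Ebf2 (51.7% to 54%). For Eomes and Fzd7 it held at least 55.7% and for Ctxn3 at least 51.1%, so 6 of the 50 genes had at least 50% of their positive nuclei there. Eomes, Fzd7 and Ctxn3 were detected in only 3% to 3.6% of the nuclei inside. They enter that count only through lower bounds that rest on outside detection listed at 0. It held 49.5% for Sln (47% to 52.1%), 46.3% for Nr2f2 (44.3% to 48.5%) and 39.5% for Postn (38.2% to 40.9%). The values fell to 28.2% for Calb2 (27.8% to 28.7%) and 14.6% for Ebf1 (14.4% to 14.8%). The median over the 50 genes was 12.8%, and 19 genes had under 10% of their positive nuclei in the cluster. The lowest values, 1.81% for Nrg3 and Pcdh9, lay close to the share of the cluster itself. A positive nucleus here is one with any detected transcript. No background level of free RNA was measured, so at detection of a few percent outside the cluster these parts do not show how many of the other positive nuclei expressed the gene.

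**Figure D4:**
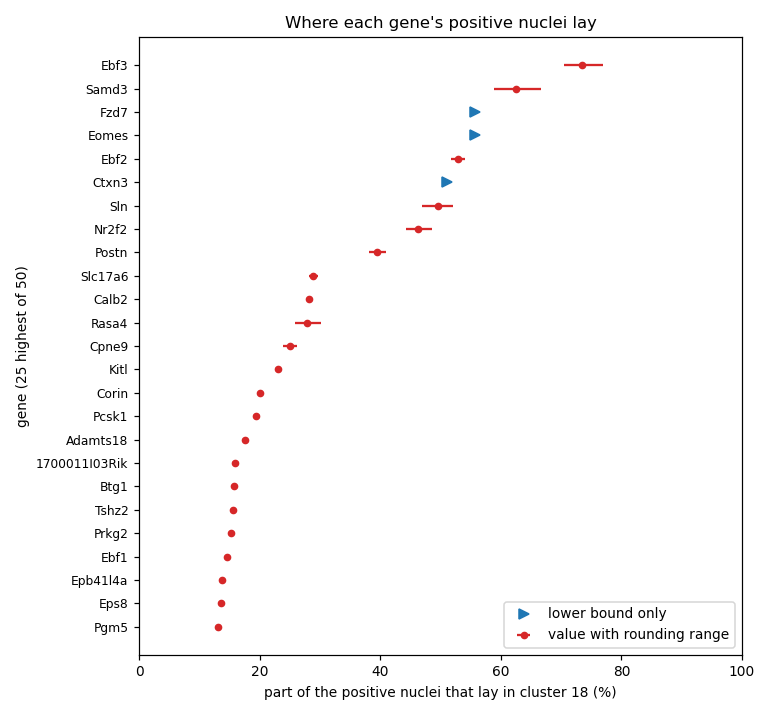
Part of all nuclei positive for a gene that lay in cluster 18, for the 25 genes with the highest values; bars give the range that rounding of the detection values allows, and blue arrows mark lower bounds for genes listed at 0 outside. Ebf3 reaches 73.5% and Pgm5, the lowest shown, 13.1%.

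Cluster 21 was set beside cluster 18 as the other population with Slc17a6. Each cluster was compared by the authors with all other nuclei, which include the other cluster, so their values are given side by side only. Slc17a6 was detected in 29.8% of cluster 18 and 37.9% of cluster 21 nuclei (log2 fold change 4.64 and 5.15) in the authors' deposited table. By the shares above, the pair held 59.1% of all nuclei with detected Slc17a6, 28.9% in cluster 18 and 30.2% in cluster 21, and the gene was detected in 0.767% of the nuclei of the other clusters. The remaining 3 shared genes were Asic2 (99.8% and 96.2%), Elavl2 (67.1% and 62.6%) and Ntng1 (89.1% and 99.3%) in the authors' deposited table, each listed for at least 1 further cluster. The 2 lists therefore shared 4 of 50 genes, and among all 300 pairs of broad clusters 51 shared at least 4.

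The clusters differed in the transcription factors listed. Cluster 18 had the 7 named above, and cluster 21 had others, among them Bnc2 (50% against 1.1%, log2 fold change 6.79), Onecut2 (32.1% against 1.9%, 4.53), Dach1 (75.5% against 12.2%, 3.74) and Isl1 (29.3% against 4.7%, 2.82), in the authors' deposited table. Among calcium-binding genes, cluster 18 listed Calb2 and cluster 21 Pvalb (12.9% against 0.6%, 4.49) in the authors' deposited table. Cluster 21 also listed the long non-coding RNA gene Rmst (74.8% against 8.4%, 4.58) and the opioid receptor gene Oprm1 (49.3% against 8%, 3.18) in the authors' deposited table. Among its 50 genes were 5 ion channel genes, such as Kcnmb2 (36.2% against 5%, 2.93), where that list made up 4.40% of all rows. Each of the 5 was also listed for another broad cluster. Absence from a list of 50 does not show absence of expression, but detection outside a cluster limits detection in the other. Ebf3 and Samd3 could have been detected in at most 23.6% of cluster 21 nuclei, below the 47% and 28.2% of cluster 18, and Eomes and Fzd7 in at most 3.36%, below 3.6%. For the other 42 of the 46 genes not listed for cluster 21, the limit was no lower than the detection in cluster 18 (77.4% for Ebf2, 37% for Sln), so the values do not settle whether they differed between the pair. In the reverse direction, Pvalb could have been detected in at most 36.8% and Bnc2 in at most 65% of cluster 18 nuclei, both above their values in cluster 21. For Onecut2, Dach1, Isl1, Rmst, Kcnmb2 and Oprm1 the limit was 100% and gives no information. Dach1 was also listed for cluster 11 and Isl1 for cluster 1.

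Of the 50 genes, 30 (60%) were listed for no other broad cluster, against 43.8% of all rows. The other 20 were shared with 1 to 5 further clusters, most often with clusters 15 and 24 (5 genes each) and with 21 and 23 (4 each). Of the 24 other clusters, 9 shared 0. Among all 300 pairs of broad clusters 118 shared 0, so that count was near the background. Detection was higher in cluster 18 than in any other listing cluster for 8 of the 20, tied at 100% for Ptprd and Nrg3, and lower than in another for 10. Sema3a, at 63.3%, was detected in 28.5% of the nuclei of cluster 6, its only other listing cluster, and Cpne9, at 16.9%, in 10% of those of cluster 15 in the authors' deposited table. The largest distance in the other direction was that of Tshz2 to cluster 23.

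**Figure D5:**
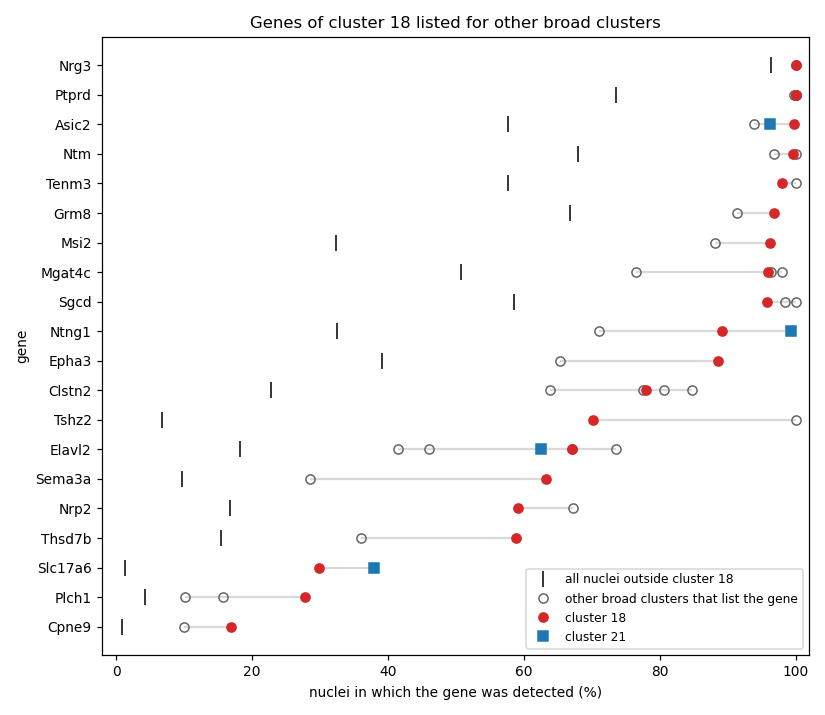
Detection of the 20 genes of cluster 18 that other broad clusters also list: in cluster 18 (red), in cluster 21 (blue squares), in the other listing clusters (open circles) and in all nuclei outside cluster 18 (black bars). Sema3a, Thsd7b, Epha3 and Plch1 are highest in cluster 18, and Tshz2, Ntng1 and Slc17a6 are higher in another cluster.

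The subcluster tables, which cover GABA neurons and a set of nuclei labelled Sst, name 705 and 353 genes. They listed 21 and 10 of the 50 genes, and 28 were in neither. The matching shares over all 834 genes of the broad clusters were not computed. Nothing about cluster 18 is therefore read from counts of overlap or absence here. Of the 30 genes that no other broad cluster listed, 26 were in neither subcluster table. The 4 exceptions were Nr2f2, given above, Eps8 in GABA subcluster 3 (10% against 5.2%, log2 fold change 1.12), Crtac1 in GABA subcluster 10 (8.2% against 2.2%, 2.00) and Pcdh9 in Sst subcluster 2 (99.9% against 95.3%, 1.14) in the authors' deposited table. GABA subclusters 10 and 21 and Sst subcluster 1 shared 5 genes each with cluster 18, and none of these 15 listings was of an EBF gene, Slc17a6 or Calb2. The tables cover different sets of nuclei, so their fold changes are not on 1 scale.

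Of the 50 symbols, 49 were placed in GENCODE M21, all protein-coding, on 17 chromosomes. Their median genomic span was 178 kb, against 278 kb for cluster 21, 133 kb for the 820 placed genes of the whole table and 17.4 kb for all protein-coding genes. The 11 genes detected in at least 90% of nuclei inside spanned a median of 877 kb and the other placed genes 113 kb. Genes listed for cluster 18 alone spanned 108 kb at the median and genes shared with other clusters 533 kb. In nuclear RNA long genes yield many intronic reads, and the part of gene length in these detection values was not tested. The closest pair of members on a chromosome was Ebf2 and Nefm, 0.652 Mb apart on chromosome 14.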

How the data were processed

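Droplet-based RNA sequencing of single nuclei was done on 3 libraries from the pooled septal nuclei of 8 mice. Per the submitters' processing notes, the tools included Seurat 4 and the reads were placed on mm10. How reads were aligned, nuclei filtered, doublets treated and clusters made, and which test gave the p-values, is not stated in the labels or headers. The authors deposited a log2 fold change of each cluster over the remaining nuclei of that table (pseudocount unknown). The deposited detection values are fractions of nuclei, rounded to 3 decimals and printed here as percentages. A deposited p-value takes nuclei as replicates, although they came from pooled animals, so none was used.

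Shares of nuclei were solved by least squares from 286 genes listed for at least 2 broad clusters, since overall detection of a gene is the same from each. Each pair of clusters that list a gene gave 1 equation. It was weighted by the inverse square root of the number of clusters that list the gene. The code was checked on 1 simulated table with known shares. Its detection inside lay above that of many genes here, and the check allowed larger errors than the rounding SD given above. Rounding of the detection values gave the SD and the ranges. No test was run, because 1 group has no comparison and the genes were chosen by the contrast itself. Named genes followed a rule (the 15 of largest fold change with detection of at least 25% inside, the 5 of largest difference in detection, the 5 of largest fold change below 25%, genes shared with cluster 21 and members of 15 functional lists). Ank3, Btg1, Nefm and the genes without a list were named to account for all 50. The members, lists and motifs were chosen with earlier results of these data known. Gene positions came from GENCODE M21 on GRCm38, the assembly of mm10, and promoters from RefSeq. Calculations used scipy 1.17.1, numpy 2.4.6 and pandas 2.3.3 under Python 3.11.15, and plots used matplotlib 3.10.9.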

Additional observations from a re-analysis of the deposited data

How the results depend on the processing

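The share of cluster 18 was 1.74% to 1.75% and that of cluster 21 1.46% to 1.47% under 3 other solutions (genes with detection of at least 25% inside, shares forced to sum to 100%, least absolute deviations), and the median part of positive nuclei in cluster 18 stayed between 12.6% and 13.1% under these and under rounding. Counts followed their thresholds. Clusters 18 and 21 shared 1 gene in place of 4 when both fold changes had to reach 3 (log2). A minimum of 3 or 5 in place of 4 gave 34 or 10 genes of cluster 18 in place of 16, and detection outside under 2% in place of 5% gave 16 in place of 28. Ranked by the difference in detection, the 10 leading genes had 2 in common with the 10 of largest fold change, and 3 of the latter were detected in under 10% of the nuclei inside; ranked by the detection ratio they had 7 in common. The EBF motif count rose from 0 to 7 windows with the inner 8 bases. The other alternatives moved no count by more than 1.5 times. No paired analysis was possible because all samples form 1 group. Nor could a library be left out, since the tables pool the libraries. The unknown number and depth of nuclei limit every value: no counting interval could be given.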
